A study of Mus musculus with 12 samples.

Results

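The Ms4a genes studied here are 8 mouse genes, Ms4a3, Ms4a4a, Ms4a4c, Ms4a6b, Ms4a6c, Ms4a6d, Ms4a7 and Ms4a8a, out of 27179 genes counted. They were chosen from their own read counts along this time course, so their levels, changes and calls below are a description and carry no test. RNA was sequenced in bulk from AML246, a murine acute myeloid leukemia on the C57BL/6 background that lacks p53 and carries a short hairpin against PU.1 linked to GFP. Doxycycline (Dox) shut off the hairpin, so that the cells' own PU.1, encoded by Spi1, came back gradually. There were 3 libraries in each of 4 groups, all from GFP-positive cells sorted from bone marrow of leukemic recipients: untreated (GFPhigh), Dox day 2 (GFPhigh-mid), Dox day 4 (GFPmid) and Dox day 6 (GFPlow). The deletion of p53 and the hairpin were common to all 4 groups. No Dox-treated group without the hairpin was analysed here, and 1 leukemia stood for the model. The GFP gate moved with the time on Dox and cannot be told apart from it. The titles call the replicates technical, whereas the design text speaks of triplicate mice, so the spread between libraries may be technical in part.

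Ms4a genes encode small membrane proteins with 4 transmembrane stretches, most of them made in blood and immune cells. The founding members are CD20 (Ms4a1), the B cell antigen, and the beta chain of the high-affinity IgE receptor (Ms4a2), which amplifies the signal of that receptor on mast cells. Family members sit beside other receptors in the membrane and adjust their signalling, trafficking or calcium entry. In the bone marrow Ms4a3 marks granulocyte-monocyte progenitors, while Ms4a4a, the Ms4a6 genes and Ms4a7 are known from monocytes and macrophages. PU.1 is the ETS-family transcription factor that drives the making of both granulocytes and monocytes.

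The 8 genes lay in 1 stretch of chromosome 19 (mm10, chr19:11067471-11640851), 573381 bases long, which held 19 protein-coding genes. Ms4a8a stood at one end (chr19:11067471-11081103, minus strand), followed by Ms4a7 (chr19:11321039-11336146, minus strand). Next came Ms4a4a (chr19:11375488-11392915), Ms4a4c (chr19:11404717-11427246), Ms4a6c (chr19:11469353-11487182) and Ms4a6b (chr19:11518559-11530403), all on the plus strand. Ms4a6d (chr19:11586606-11604804) and Ms4a3 (chr19:11629499-11640851), both on the minus strand, closed the row. Some of these genes are close copies. The coding sequences of Ms4a6b and Ms4a6d were 80.2% identical, those of Ms4a6b and Ms4a6c 75.6%, and that of Ms4a4c was 91.7% identical to its neighbour Ms4a4b. Of all runs of 50 bases in the annotated transcripts, 8.19% in Ms4a4c, 5.85% in Ms4a6c, 3.44% in Ms4a6b and 2.31% in Ms4a6d also occurred in another Ms4a gene. For Ms4a3, Ms4a4a, Ms4a7 and Ms4a8a that share was 0. How the counting treated reads that match several genes is not given in the sources used here, so counts of the close copies are uncertain to that extent.

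The likeness of Ms4a6c and Ms4a6b extended into their promoters, which is why stretches of both are shown. RefSeq windows (GRCm38.p6, the mm10 build) of 250 bases before to 50 after a transcript start were matched for 7 of the 8 genes, all but Ms4a6d. Just upstream of their starts Ms4a6c and Ms4a6b shared a run of 48 identical bases, and in each the run held AGGAAGT, the core letters of a PU.1 motif. Capitals mark AGGAAGT in the first pair of sequences and GAAANNGAA, the interferon-stimulated response element, in the second pair, each written 5′ to 3′ on the plus strand, the strand of both genes.
Ms4a6c chr19:11469331-11469367: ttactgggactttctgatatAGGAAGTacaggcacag
Ms4a6b chr19:11518453-11518499: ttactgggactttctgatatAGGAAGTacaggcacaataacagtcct
Ms4a6c chr19:11469215-11469263: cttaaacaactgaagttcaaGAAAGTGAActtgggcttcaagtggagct
Ms4a6b chr19:11518333-11518381: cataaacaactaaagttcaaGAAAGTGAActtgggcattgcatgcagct

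Counted back from the start, AGGAAGT lay at -17 to -11 in Ms4a6c and at -86 to -80 in Ms4a6b, which held a further match on the opposite strand at -43 to -37, outside the shared run. GAAANNGAA lay at -133 to -125 in Ms4a6c and at -206 to -198 in Ms4a6b. AGGAAGT, searched on both strands and chosen after the letters had been seen, occurred in 2 of the 7 genes and in 9.35% of 32851 promoter windows. It is contained in the longer PU.1 motif GAGGAAGT, which occurred in 0 of the 7 genes and in 3.20% of windows. GAAANNGAA occurred in 3 of the 7 genes, Ms4a6b, Ms4a6c and Ms4a7, and in 8.56% of windows. The ETS-IRF composite GGAANNGAA occurred in 1 of the 7 genes, Ms4a6c, and in 8.24% of windows. The C/EBP motif TTNNGNAA occurred in all 7 of the 7 genes and in 40.7% of windows. Of the 11 other Ms4a genes with a window, AGGAAGT occurred in 1, GAGGAAGT in 0, GAAANNGAA in 1, GGAANNGAA in 2 and TTNNGNAA in 5. A gene counted if any of its windows matched, and Ms4a7 had more than a single window, whereas the percentages are per window. These are matches of letters only, and no binding was measured.

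Levels are given as CPM, read counts scaled to TMM-adjusted library totals, and, where genes are compared with each other, per kilobase of the deposited gene length (RPKM). Totals ran between 4918920 and 7356166 counts per library, so that 3 counts stood for 0.393 to 0.639 CPM. Spi1 itself averaged 62.4 ± 7.29 CPM in untreated cells, 110 ± 11.98 on day 2, 260 ± 14.1 on day 4 and 458 ± 33.9 on day 6 (SD, n = 3). As a check of the labelled cells, the progenitor genes, such as Mpo and Elane, had a summed level of 29150 to 33110 CPM in untreated libraries. Mpo alone averaged 18010 CPM there, whereas Cd34 and Cpa3 of the same list averaged 2.83 and 3.16 CPM. The 15 monocyte genes summed to 7187 to 9726 CPM in these libraries. In the same libraries the 8 B cell markers, Ms4a1 among them, summed to 1.72 to 1.84 CPM. Untreated replicate 2 stood apart from the other untreated libraries, with a summed level of 12 mature neutrophil genes of 2183 CPM against 1057 and 1340, and of 15 macrophage genes, mostly Apoe, of 336 CPM against 885 and 1029. Day 6 replicate 2 stood apart more widely and is described with the genes it touches.

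Ms4a3 was the most abundant of the 8 genes before Dox, and its mean was higher at each later time. It is the family's marker of granulocyte-monocyte progenitors, and its human protein binds a phosphatase of cyclin-dependent kinases. It had 38.1, 128 and 30.6 CPM in untreated cells, 79.2, 93.6 and 190 on day 2, 261, 355 and 180 on day 4, and 467, 395 and 604 on day 6. The day 2 libraries overlapped both the untreated and the day 4 libraries, whereas all 3 day 6 libraries lay above all 3 day 4 libraries. The log2 change against untreated cells was 0.88 ± 0.53 on day 2, 2.01 ± 0.54 on day 4 and 2.89 ± 0.55 on day 6 (± SE of the fit). Without untreated replicate 2, the highest of its group, the change was 2.95 on day 4 and 3.83 on day 6. In bulk RNA, fewer cells of a type and less RNA per cell cannot be told apart, here and for every gene below.

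Ms4a6c was second in level before Dox and the only one of the 8 with all its day 2 libraries above the untreated ones. It had 7.50, 21.7 and 9.90 CPM in untreated cells, 57.8, 90.1 and 33.1 on day 2, 579, 595 and 699 on day 4, and 228, 733 and 286 on day 6. The day 6 libraries straddled those of day 4, with replicate 2 above and the other two below. The log2 change against untreated cells was 2.20 ± 0.56 on day 2, 5.58 ± 0.60 on day 4 and 4.99 ± 0.59 on day 6. Its day 6 change was 4.29 without day 6 replicate 2, and without untreated replicate 2 its changes were 6.16 on day 4 and 5.58 on day 6. It alone of the 8 genes had its highest mean on day 4. Without day 6 replicate 2 its change on day 6 against day 4 was -1.28, against -0.59 ± 0.48 with all libraries.

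Ms4a4c, Ms4a6d, Ms4a6b and Ms4a4a were barely present before Dox and through day 2. Ms4a4c had 0.71, 3.48 and 0.57 CPM in untreated cells, 3.34, 5.85 and 1.05 on day 2, 67.1, 90.0 and 92.4 on day 4, and 49.6, 210 and 66.7 on day 6. Ms4a6d, a gene of monocytes and macrophages, had 0.71, 1.67 and 0.29 CPM in untreated cells, 1.37, 4.39 and 2.88 on day 2, 42.9, 75.3 and 77.3 on day 4, and 35.4, 200 and 45.1 on day 6. In both genes the day 2 and untreated libraries overlapped, all day 4 libraries lay far above both, and day 6 replicate 2 exceeded the day 4 libraries while day 6 replicate 1 lay below them.
Ms4a6b had 0.57, 2.50 and 0.57 CPM in untreated cells, 0.91, 1.10 and 1.05 on day 2, 13.8, 22.7 and 25.1 on day 4, and 29.2, 130 and 33.9 on day 6. All 3 of its day 6 libraries lay above all day 4 libraries. Ms4a4a, a surface protein of macrophages that associates with the beta-glucan receptor Dectin-1, had 0.14, 0.83 and 0 CPM in untreated cells, 0.30, 0.37 and 0.13 on day 2, 5.10, 7.28 and 8.94 on day 4, and 7.67, 39.0 and 5.85 on day 6. Its day 6 replicates 1 and 3 lay within the range of the day 4 libraries, and replicate 2 lay above them.

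Against untreated cells the log2 changes on day 4 and on day 6 were 5.68 ± 0.78 and 6.08 ± 0.78 for Ms4a4c, and 6.16 ± 0.92 and 6.69 ± 0.91 for Ms4a6d. They were 4.05 ± 0.78 and 5.71 ± 0.75 for Ms4a6b, and 4.35 ± 1.02 and 5.68 ± 0.96 for Ms4a4a. Single libraries moved these values. Without day 6 replicate 2 the day 6 changes were 5.17 for Ms4a4c, 5.46 for Ms4a6d, 4.67 for Ms4a6b and 4.28 for Ms4a4a. Without untreated replicate 2 they were 7.37, 7.51, 6.78 and 7.62, and the day 4 changes were 6.98, 6.97, 5.12 and 6.29 in the same order. The step fell between day 2 and day 4, where the log2 changes were 4.69 for Ms4a4c, 4.53 for Ms4a6d, 4.31 for Ms4a6b and 4.70 for Ms4a4a, against 3.38 for Ms4a6c and 1.13 for Ms4a3. The day 2 mean was 4.10%, 4.42%, 4.96% and 3.75% of the day 4 mean in Ms4a4c, Ms4a6d, Ms4a6b and Ms4a4a, but 9.66% in Ms4a6c and 45.6% in Ms4a3.

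Ms4a7 and Ms4a8a were the rarest. Ms4a7, a gene of tissue macrophages, had 4, 0 and 0 counts in untreated cells, 0, 0 and 2 on day 2, 4, 7 and 10 on day 4, and 5, 29 and 14 on day 6. It missed the filter on low counts and was not fitted. Its counts pooled over 3 libraries were 15.9 times those of untreated cells on day 6, scaled to the libraries' totals (95% interval 5.81 to 60.6, for counting error only). Ms4a8a, described in alternatively activated macrophages, had 0, 1 and 0 counts in untreated cells, none on day 2, 12, 15 and 17 on day 4, and 2, 63 and 6 on day 6. Its day 4 counts were at least 14.2-fold higher than those of day 2, taking 3 counts over the group as the floor. Replicate 2 held 63 of its 71 day 6 counts, and the other two day 6 libraries lay below every day 4 library.

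**Figure D1:**
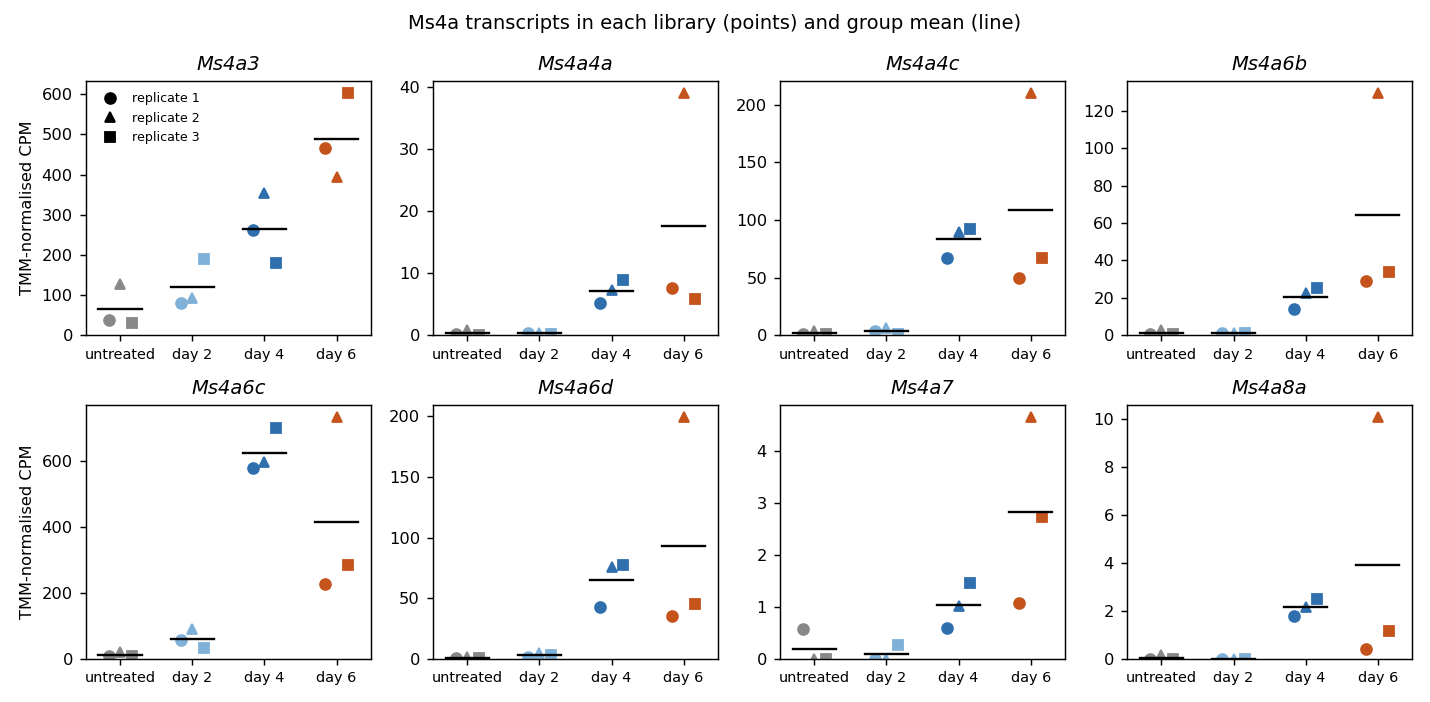
CPM of each of the 8 Ms4a genes in each of the 12 libraries (linear scale, one panel a gene), grouped as untreated, day 2, day 4 and day 6, with 1 symbol per replicate and a line at the group mean. The mean of Ms4a3 is higher at each later time, Ms4a6c is already between 33.1 and 90.1 CPM on day 2, and the means of the others are far lower on day 2 than on day 4.

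Of the 8 genes, 7 passed the filter on low counts. At day 4 against untreated cells all 7 were called higher by the edgeR quasi-likelihood fit (adjusted p under 0.05), where 22.1% of the 12057 genes fitted were called higher. At day 6 against untreated cells 7 were again called higher, where 35.0% of genes were. At day 2 against untreated cells 0 of the 7 were called, where 1.05% of genes were called higher. The day 4 step against day 2 called 6 of the 7, all but Ms4a3, where 15.0% of genes were called higher. Day 6 against day 4 called 1, Ms4a6b, where 23.6% of genes were called higher. Counted by libraries, all 3 Dox libraries lay above all 3 untreated ones in 1 of the 7 on day 2 (12.2% of genes) and in all 7 on day 4 (29.2% of genes) and on day 6 (34.3% of genes). The genes were listed for these values, so nothing is read from the counts. Leaving out Ms4a8a, whose untreated libraries held 1 count, the median log2 change of the other 6 was 0.94 on day 2, 4.97 on day 4 and 5.69 on day 6, beside 0.00, -0.01 and 0.00 over all genes fitted.

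Compared per length, the family changed in make-up as well as in amount. The summed level of the 8 genes was 43.3, 143 and 35.9 RPKM in untreated cells, 110, 144 and 207 on day 2, 627, 773 and 658 on day 4, and 655, 1152 and 839 on day 6. Libraries of day 4 and day 6 did not overlap with those of untreated cells or day 2, and day 4 overlapped day 6. Ms4a3 made up 86.5 ± 2.24% of the sum in untreated cells, 75.2 ± 13.6% on day 2, 37.8 ± 9.60% on day 4 and 58.5 ± 21.3% on day 6 (SD, n = 3). Ms4a6c made up 9.75% in untreated cells, 21.3% on day 2, 44.8% on day 4 and 21.5% on day 6. The share of Ms4a3 on day 6 was 70.4% and 71.2% in replicates 1 and 3 but 33.8% in replicate 2.

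In order of RPKM, Ms4a3 (mean 64.9) stood above Ms4a6c (6.35) in untreated cells with no overlap of libraries. Below Ms4a6c the other 6 genes, all with means under 1 RPKM, overlapped each with the next. At day 4 Ms4a6c (304) and Ms4a3 (262) overlapped at the top. They were followed by Ms4a4c (48.3) and Ms4a6d (47.5), which overlapped each other, then by Ms4a6b (12.2) and Ms4a4a (8.50), which also overlapped, then by Ms4a8a (1.99) and Ms4a7 (1.09), whose libraries were separate. At day 6 Ms4a3 (482.8) again stood apart from Ms4a6c (202). From Ms4a6c down, the range over libraries of each gene overlapped that of the next, with replicate 2 highest in each. Compared within each day 6 library, Ms4a6c lay above Ms4a6d, Ms4a4c above Ms4a6b, Ms4a6b above Ms4a4a and Ms4a4a above Ms4a8a. The order of Ms4a6d and Ms4a4c, and of Ms4a8a and Ms4a7, differed between libraries. Ms4a6b also lay above Ms4a4a within each day 4 library.

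**Figure D2:**
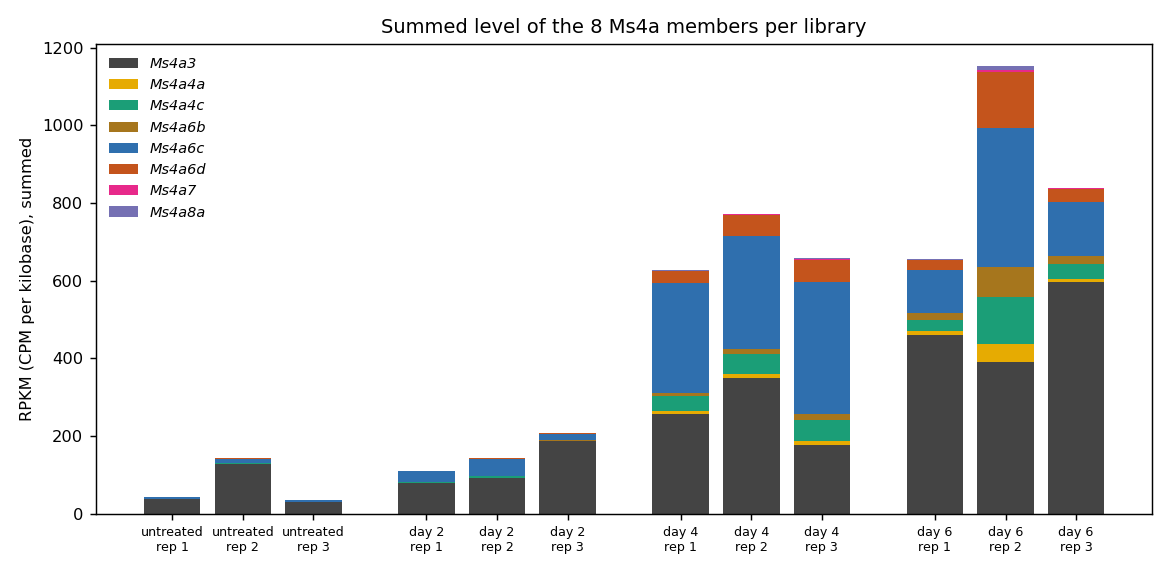
Summed RPKM of the 8 Ms4a genes in each of the 12 libraries as stacked bars, coloured by gene. Ms4a3 fills most of the untreated and day 2 bars, Ms4a6c takes 37.5 to 51.8% of the day 4 bars, and day 6 replicate 2 reaches 1152 RPKM.

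Day 6 replicate 2 differed from its partners in most of these genes. It held at least 2 times the CPM of both other day 6 libraries in 6 of the 7 genes fitted, all but Ms4a3, where 5.75% of all genes fitted did so. Its level divided by the mean of replicates 1 and 3 was 5.77 for Ms4a4a, 4.96 for Ms4a6d, 4.10 for Ms4a6b, 3.61 for Ms4a4c and 2.86 for Ms4a6c, but 0.737 for Ms4a3. As a share of the day 4 mean, replicates 1 and 3 of day 6 averaged 41.1% for Ms4a6c, 61.7% for Ms4a6d, 69.9% for Ms4a4c, 95.1% for Ms4a4a, 154% for Ms4a6b and 202% for Ms4a3. In replicate 2 the shares were 117% for Ms4a6c, 306% for Ms4a6d, 253% for Ms4a4c, 549% for Ms4a4a, 631% for Ms4a6b and 149% for Ms4a3. Without replicate 2 the log2 change of day 6 against day 4 was -0.077 for Ms4a4a, -0.51 for Ms4a4c and -0.69 for Ms4a6d, against 1.32, 0.40 and 0.53 with it. For Ms4a3 the change was 1.01 without it and 0.88 with it. For Ms4a6b it was 0.62 without it and 1.66 with it, and the call of Ms4a6b on day 6 against day 4 was lost without replicate 2.

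**Figure D3:**
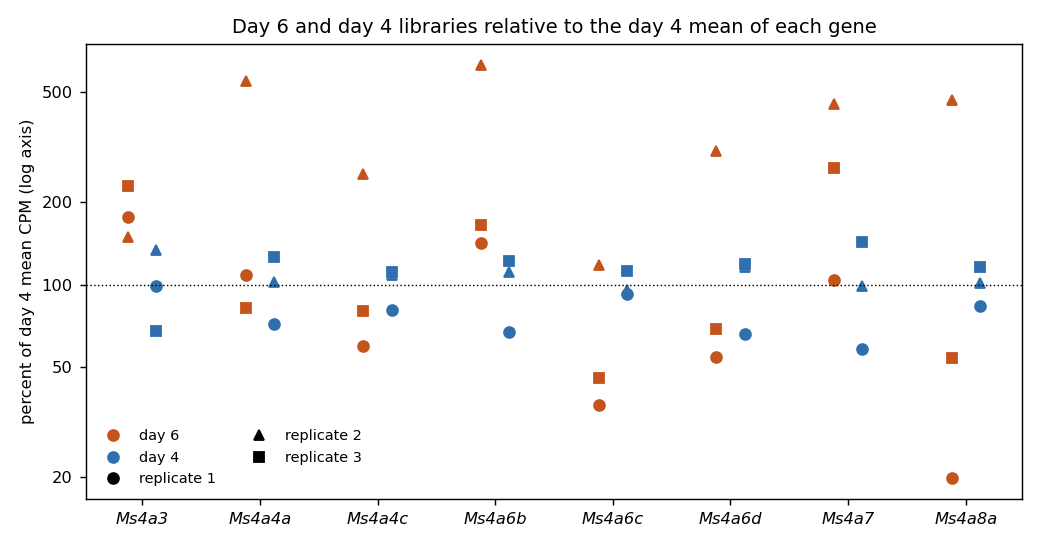
Each Ms4a gene in each day 6 and each day 4 library as a percentage of its day 4 mean (log scale), with 1 symbol per replicate and a dotted line at 100%. Replicate 2 is the highest day 6 library in 7 of the 8 genes, and in Ms4a3 it is the lowest, at 149%.

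Other gene groups moved with this library. The summed level of 15 macrophage genes was 2392 CPM in replicate 2, against 608 in replicate 1 and 616 in replicate 3. Without Apoe the other 14 summed to 494.5 CPM against 257 and 260. In the same library 12 mature neutrophil genes summed to 70720 CPM against 150200 and 132900. Apoe, a lipid carrier made by macrophages, had 1897 CPM against 351 and 356. C1qa, a complement subunit, had 77.8 CPM against 10.4 and 9.17, while Marco was at 0 in all 12 libraries. Among the 15 macrophage genes 10 were highest in replicate 2 and 1, Vcam1, was lowest there, at 36.92 CPM against 93.52 and 79.96. Adgre1 in replicate 2 lay between its partners, at 57.46 CPM against 56.88 and 72.36. Of the 15 monocyte genes 10 were at least 2 times as high as in both partners, as were 5 of 12 fitted macrophage genes and 0 of 12 neutrophil genes. The 15 monocyte genes summed to 30460 CPM in replicate 2, against 34260 and 30380, with 12 of them highest and 3 lowest there. Lyz2, the most abundant, was among those lowest in replicate 2, at 18910 CPM against 29010 and 24910. Csf1r, the receptor of the macrophage growth factor, had 726 CPM against 283 and 302. The 9 T cell markers summed to 54.9 CPM against 18.5 and 19.7, and 8 of the 9 were highest in replicate 2, such as Lck at 20.7 CPM against 1.06 and 1.17. Cd28, the most abundant of the 9 over all libraries, was lowest there, at 5.14 CPM against 14.5 and 16.8. The part of these differences in the levels of the Ms4a genes was not tested.
Untreated replicate 2 held at least 2 times the CPM of both other untreated libraries in all 7 of the 7 genes fitted, where 1.53% of all genes did so, several of them on a handful of counts. Of the 12 neutrophil genes 10 were highest in this library. Its low macrophage sum came from Apoe, at 253 CPM against 820 and 940 in the other untreated libraries, while the other 14 macrophage genes summed to 82.9 CPM against 65.4 and 89.2. The part of these differences in the Ms4a levels was not tested.

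Each gene's profile over the 12 libraries, on the log2 scale and centred on its untreated mean, was set against every other fitted gene by root mean square distance. The nearest to Ms4a4a were Msr1, a macrophage scavenger receptor (0.33), and Sdc3, a syndecan (0.42). The nearest to Ms4a6b were Tgfbi, an adhesion protein of the extracellular matrix (0.37), and again Msr1 (0.40). Clec4a3 (0.36) and Clec4a1 (0.45), C-type lectin receptors of myeloid cells, lay nearest to Ms4a6d, and Pira2, a paired immunoglobulin-like receptor (0.35), and Il10ra, a chain of the interleukin-10 receptor (0.46), nearest to Ms4a6c. Ms4a4c was nearest to the interferon-inducible Ifi27l2a (0.57) and to Sirpb1c (0.59), and Ms4a8a to Tnfrsf11a, the receptor RANK (0.53), and Gngt2 (0.53). Ms4a3 was nearest to Coro1a, an actin-binding protein of leukocytes (0.50), and B4galt6 (0.51). Within the family the shortest distances were 0.47 between Ms4a4a and Ms4a6b and 0.59 between Ms4a4c and Ms4a6d, while Ms4a3 lay 1.25 from its nearest relative. These are distances over libraries that share groups and depth, and no p is attached.

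The other Ms4a genes of the stretch and just beyond its end were mostly silent. Of 15 other genes listed, 13 Ms4a genes and their distant relatives Tmem176a and Tmem176b, 14 were analysed here and 4 were fitted. This list, too, was drawn up with earlier results of these data known, and its calls and adjusted p-values are a description. Ms4a5, Ms4a10, Ms4a13, Ms4a18, Ms4a19 and Ms4a20 had 0 counts in every library, Ms4a1 had 2 counts in all, Ms4a4d 6, Ms4a14 12 and Ms4a15 1. The predicted gene Gm8369, between Ms4a6c and Ms4a6b, had 51 counts in all and was not fitted. Its means were 0.048 CPM in untreated cells, 0.10 on day 2, 1.76 on day 4 and 0.69 on day 6. Beyond Ms4a3 the oocyte-secreted protein genes Oosp2, Oosp1 and Oosp3 had 1, 9 and 0 counts.

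Ms4a4b was the main exception, beside Ms4a2 with a day 6 mean of 3.10 RPKM. Ms4a4b lies between Ms4a4c and Ms4a6c, was first known from T cells, and shares stretches of sequence with Ms4a4c. It had 0.71, 2.50 and 0.29 CPM in untreated cells, 6.52, 7.31 and 2.09 on day 2, 37.3, 38.6 and 43.1 on day 4, and 14.5, 23.4 and 12.5 on day 6. It rose on day 4 (log2 change against untreated 5.05 ± 0.53, adjusted p = 2.54e-05, edgeR quasi-likelihood) and on day 6 (3.83 ± 0.55, adjusted p = 8.32e-05), and was lower on day 6 than on day 4 (-1.23 ± 0.38, adjusted p = 0.0222). That last call was lost without day 4 replicate 2 or 3 or day 6 replicate 1 or 3 (adjusted p = 0.0531 to 0.081). Without untreated replicate 2 the changes against untreated cells were 6.26 on day 4 and 5.03 on day 6. At day 2 its change of 2.12 ± 0.62 did not pass (adjusted p = 0.141). Its day 6 libraries all lay below its day 4 libraries. In Ms4a4c day 6 replicates 1 and 3 (49.6 and 66.7 CPM) also lay below the lowest day 4 library (67.15 CPM). Only replicate 2 of Ms4a4c, at 210 CPM, lay above its day 4 libraries.

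Ms4a2, the IgE receptor beta chain, rose on day 6 by a log2 change of 2.96 ± 0.76 (adjusted p = 0.0038), on 19, 9 and 20 counts on day 6 against 0, 7 and 1 in untreated cells. Ms4a2 passed the filter on low counts only through day 4 and day 6 libraries, where it was highest, so its calls are a description. Without untreated replicate 2 Ms4a2 was called on day 4 too (adjusted p = 0.015). The IgE-binding chain Fcer1a was too low to be fitted. Tmem176a fell on day 6 (log2 change -1.57 ± 0.44, adjusted p = 0.00767), with 2.34, 12.5 and 3.90 CPM on day 6 against 22.7, 13.4 and 22.2 in untreated cells, so that replicate 2 lay closest to the untreated libraries. Without replicate 2 the change was -2.62 (adjusted p = 1.01e-05). Tmem176b had 6.60, 45.1 and 6.63 CPM on day 6 against 41.2, 22.9 and 42.2 in untreated cells, so that replicate 2 alone lay above the untreated libraries. It did not pass (-0.82 ± 0.59, adjusted p = 0.242), but passed without day 6 replicate 2 (-2.42, adjusted p = 5.82e-05) and with limma voom (-1.30, adjusted p = 0.0454). In all, 0 of the 4 genes were called on day 2, where 1.05% of all genes were called higher and 0.406% lower. On day 4 1 was called higher and 0 lower (22.1% and 20.2% of all genes). On day 6 2 were called higher and 1 lower (35.0% and 32.9% of all genes).

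**Figure D4:**
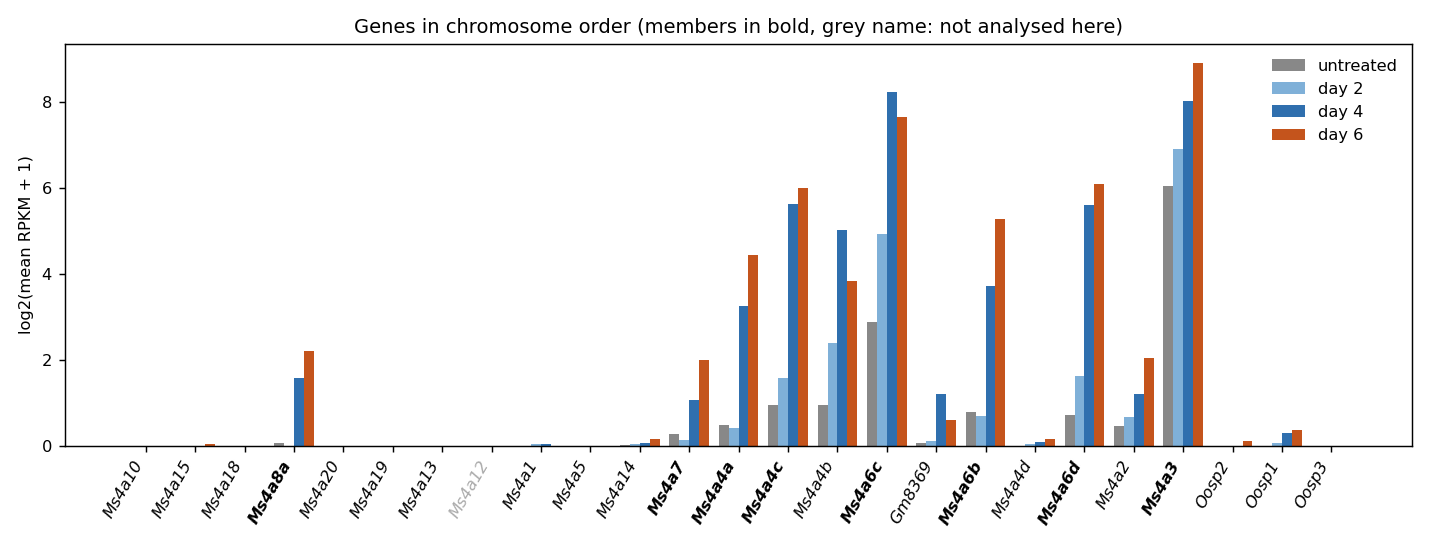
Mean level of the protein-coding genes of the stretch and the 3 next on each side in their order along chromosome 19, as log2(RPKM + 1), with bars for the 4 groups. The Ms4a genes studied and Ms4a4b carry nearly all of the signal, beside Ms4a2 with a mean of 3.10 RPKM on day 6 and genes at 0 in every library.

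Genes whose products are known to work with Ms4a proteins were listed as a pathway of their own. Of 16 listed, 14 were fitted. The list was drawn up with earlier results of these data known, so its calls and adjusted p-values below are a description. At day 2 against untreated cells 6 were called higher and none lower, with a median log2 change of 0.65. Of all genes 1.05% were called higher and 0.406% lower. At day 4 10 were higher and 1 lower (22.1% and 20.2% of all genes), with a median of 1.37. On day 6 12 were higher and 2 lower (35.0% and 32.9% of all genes), with a median of 2.20. The medians over all genes fitted were those given above, close to 0.

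Among the receptors and adaptors of the signalling chain, Tyrobp, which encodes the adaptor DAP12, had 70.2, 78.4 and 80.5 CPM on day 2 against 36.3, 36.4 and 31.4 in untreated cells, with no overlap. Its log2 change was 1.14 ± 0.11 on day 2 (adjusted p = 0.000586) and 4.29 ± 0.12 on day 6 (adjusted p = 6.25e-10). Clec7a, which encodes Dectin-1, the partner of Ms4a4a, rose by 1.71 ± 0.23 on day 2 (adjusted p = 0.00407). It had 170, 329 and 190 CPM on day 6 against 378, 473 and 489 on day 4, a fall of -0.96 ± 0.21 (adjusted p = 0.00299) in which replicate 2 was again the highest of day 6. Trem2, the receptor that signals through DAP12, rose on day 4 (4.61 ± 0.59, adjusted p = 0.000162) and did not pass on day 2 (2.00 ± 0.66, adjusted p = 0.197), where it passed without day 6 replicate 2 (adjusted p = 0.0259). Fcer1g, the common chain of Fc receptors, rose by 0.77 ± 0.10 on day 4 (adjusted p = 9.61e-05) and by 1.42 ± 0.10 on day 6 (adjusted p = 1.86e-07). The kinases Syk and Lyn, which act below these chains, rose on day 2 by 0.76 ± 0.10 (adjusted p = 0.0039) and 0.72 ± 0.14 (adjusted p = 0.0248). The call of Lyn was lost when any of the untreated libraries or day 2 replicate 1 or 2 was left out (adjusted p = 0.0523 to 0.126).

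The cytokine receptors were split. The common beta chain is the receptor part whose trafficking human MS4A3 has been linked to. Csf2ra, the alpha chain of the GM-CSF receptor, rose on day 2 (0.79 ± 0.12, adjusted p = 0.0074), as did Csf2rb2, the mouse beta chain of the interleukin-3 receptor (1.36 ± 0.14, adjusted p = 0.000688). Csf2rb, the common beta chain, rose on day 4 by 0.44 ± 0.09 (adjusted p = 0.00136). Il3ra, the interleukin-3 alpha chain, fell on day 6 (-0.88 ± 0.14, adjusted p = 0.000105), and Kit, the stem cell factor receptor, fell on day 4 (-1.74 ± 0.29, adjusted p = 0.000851) and was lower on day 6 too (-1.36 ± 0.29, adjusted p = 0.00161). Kit had 248, 91.8 and 203 CPM on day 6 against 458, 458 and 471 in untreated cells. Cdkn3, the phosphatase that binds Ms4a3 in human cells, rose on day 4 (1.00 ± 0.20, adjusted p = 0.00191), and its target Cdk2 rose on day 6 (1.04 ± 0.21, adjusted p = 0.000883). Cdk2 had 221, 102 and 183 CPM on day 6 against 90.3, 80.4 and 74.3 in untreated cells. Its day 6 replicate 2 lay within the range of the day 4 libraries (90.5 to 103 CPM). Tnfrsf18, which encodes the co-receptor GITR that works with Ms4a4b in T cells, had means of 28.3 CPM on day 6 and 3.26 CPM in untreated cells (3.11 ± 0.32, adjusted p = 3.05e-06). Vsig4, a complement receptor linked to Ms4a6d in macrophages, was too low to be fitted.

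**Figure D5:**
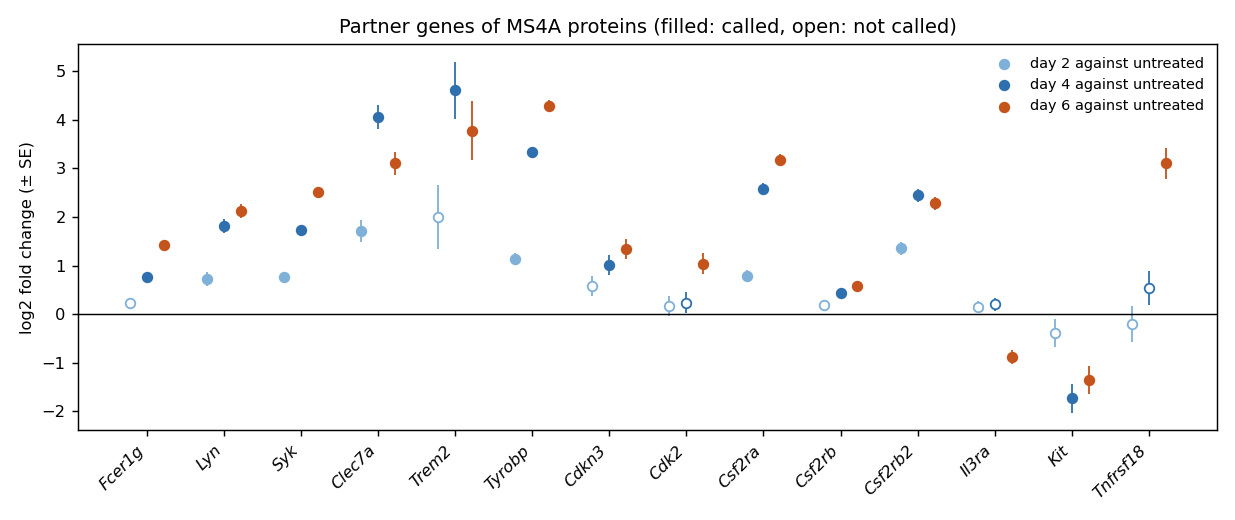
Log2 change against untreated cells on day 2, day 4 and day 6 for the 14 fitted genes whose products work with Ms4a proteins, with the SE of the fit as bars and filled points for genes called. Kit and Il3ra end below 0 on day 6, and the other 12 above it.

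Lists for cell types are given for comparison, beside the shares of all genes called: 22.1% higher and 20.2% lower on day 4, and 35.0% higher and 32.9% lower on day 6. Of 15 monocyte genes 12 were called higher on day 4 with a median log2 change of 3.17, and 11 were called higher and 2 lower on day 6 with a median of 2.32. Of 12 fitted macrophage genes 3 were called higher on day 4 and 9 higher and 1 lower on day 6. All 12 mature neutrophil genes were called higher on day 6, with a median of 6.21, and 9 on day 4. Of 10 progenitor genes 4 were called lower on day 4 and 6 on day 6, with 1 higher. The 8 eosinophil markers, Prg2 and Epx among them, summed to 59.4, 1013 and 539 CPM on day 4 against 21.8, 50.7 and 46.8 CPM in untreated cells, and the 5 NK cell markers reached at most 27.1 CPM in a library. Their part in the levels of the Ms4a genes was not tested. These lists were drawn up with results of these data known.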

How the data were processed

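The authors deposited raw read counts per Entrez gene with a gene length, 1 file per library, for 12 libraries in 4 groups of 3, with no normalisation applied. Per the submitters' processing notes, the build was mm10 and the tools included featureCounts, limma 3.22.0, edgeR 3.8.2 and CASAVA 1.8.2, with no steps assigned to them. Not given in the sources used here are the aligner, the annotation release, the strand setting and how reads with several matches were treated. The deposited files' names carry a designation that the sample labels do not explain; each library was taken from the sample recorded for its file, and the genotype of the recipient mice is not stated in the labels. Of 27179 gene IDs, 25275 got symbols from RefSeq (GRCm38) and 18 from GENCODE.

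The deposited counts were fitted over all 12 libraries with edgeR 4.0.16 in R 4.3.3, using TMM factors, its filter on low counts (12057 genes kept) and the robust quasi-likelihood test with group as the only term and 8 residual degrees of freedom. Two-sided p-values were adjusted by Benjamini-Hochberg over all genes fitted and called under 0.05. CPM used the TMM-scaled totals and RPKM the deposited lengths. TMM factors were 1.02 to 1.15 in untreated, day 2 and day 4 libraries and 0.737 to 0.847 on day 6. The fit was also run on simulated counts. These had the same spread for a gene in every library, so a library standing apart, such as day 6 replicate 2, was not covered. Intervals and floors cover counting error only. limma 3.58.1 and DESeq2 1.42.0 were alternatives.

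The Ms4a genes and all gene lists were chosen with earlier results of these data known. Named were the 8 genes, fitted relatives and partners, protein-coding neighbours up to 3 beyond each end, the 2 named genes nearest in profile to each, Spi1, and up to 4 fitted genes of the highest mean CPM per other list. C1qa, Csf1r, Marco and Lck were named after their values were seen. In place of protein identity, coding sequences of GENCODE vM21 were aligned globally with Biopython 1.88, because no protein table was used.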

Additional observations from a re-analysis of the deposited data

How the results depend on the processing

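The counts of Ms4a genes called on day 4 and day 6 against untreated cells, and on day 4 against day 2, kept their direction under every alternative run. So did the counts of partner genes, and all these counts stayed within 1.5 times. The summed level and the share of Ms4a3 stayed within 1.5 times or within 1 SD. Leaving out 1 of 3 libraries cannot move a mean by 1 SD, so that bound says little there. The summed level in untreated cells averaged 74.1 RPKM, and 39.6 to 93.3 RPKM when 1 library was left out. Elsewhere, where the count on day 2 against untreated cells was 0, DESeq2 and the fit with a replicate block each gave 1, and leaving out 1 library gave 0 to 1 (1 without day 6 replicate 2). The gene was Ms4a6c. The count on day 6 against day 4 was 1, but 0 with library totals and with no filter, and 0 to 2 when 1 library was left out: 0 without day 4 replicate 1 or 2, and 2 without day 6 replicate 3. Without day 6 replicate 2 it was 1, with Ms4a6c called lower and Ms4a6b no longer called. With only the groups compared it was 1 as well, with Ms4a3 called higher in place of Ms4a6b. Of the other Ms4a and Tmem176 genes, DESeq2 called 1 on day 2 instead of 0. On day 4 the fit of only the groups compared called 2 instead of 1, and leaving out 1 library gave 1 to 2 (2 without day 6 replicate 2 or untreated replicate 2). On day 6 their count of 3 became 4 with limma voom and without day 6 replicate 2, where Tmem176b was called lower. The cause was not tested.

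Of the log2 changes of single genes, 687 combinations of gene, comparison and setting kept direction and call, 25 lost the call, 7 gained it and 10 turned in direction. For day 2 against untreated cells, limma voom gave 0.38 for Ms4a4a and 0.088 for Ms4a6b. Leaving out 1 library gave -0.90 to 1.59 for Ms4a4a (positive without untreated replicate 2 or day 2 replicate 3) and -0.60 to 0.81 for Ms4a6b (positive without untreated replicate 2). Ms4a8a has no value there without untreated replicate 2, since no counts are left in either group. For day 6 against day 4, limma voom gave -0.055 for Ms4a8a. Leaving out 1 library gave -0.077 to 1.73 for Ms4a4a, -0.51 to 0.74 for Ms4a4c, -0.69 to 0.92 for Ms4a6d and -1.39 to 1.41 for Ms4a8a, the lowest each time without day 6 replicate 2. Ms4a8a on day 4 against untreated cells also lost its call with no filter and without several single libraries, and Ms4a3 lost its call there with only the groups compared. On day 4 against day 2 Ms4a8a lost its call with no filter and when any untreated, day 2 or day 4 library was left out. Ms4a4a lost its call on that step with limma voom. Leaving out 1 library gave log2 changes on day 6 against untreated cells of 4.28 to 7.62 for Ms4a4a, 5.17 to 7.37 for Ms4a4c, 4.67 to 6.78 for Ms4a6b, 4.29 to 5.58 for Ms4a6c, 5.46 to 7.51 for Ms4a6d and 2.55 to 3.83 for Ms4a3. Library totals moved the median of all genes by -0.52 on day 6 and -0.12 on day 4 against untreated cells, and upper-quartile factors by -0.25 on day 6. The replicates shared only a number: over 18 pairs the mean correlation of same-numbered deviations was 0.00567, between -0.172 and 0.29, and 4 of 12 libraries correlated best with their own number. Depth limits Ms4a7, Ms4a8a and the untreated and day 2 levels of Ms4a4a to a few counts each.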
